A study of Mus musculus with 12 samples.

Results

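The T-cell receptor alpha locus on mouse chromosome 14 holds the gene segments of the receptor's alpha chain, with those of the delta chain nested among them. Its rows were taken from the count table by gene symbol, as the variable (V), joining (J) and constant (C) genes of alpha and the V, diversity (D), J and constant genes of delta. Of 27179 rows, 178 met this rule, and they lie between 52427967 and 54224198 on chromosome 14 in GRCm38 (mm10). They are 106 V segments of alpha, 10 V segments that alpha and delta share (written with dv in their names), 51 J segments of alpha, 5 V, 2 D and 2 J segments of delta, and the constant genes Trac and Trdc. A further 24 RefSeq symbols of the same form have no row in the table and were not analysed here.

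The libraries come from 1 T-cell acute lymphoblastic leukemia (T-ALL), ALL101, which arose in a Vav-tTA;TRE-GFP-shIkaros mouse and was carried in recipient mice. In this system the Vav promoter drives the tTA transactivator in blood cells, tTA drives a hairpin against Ikaros linked to GFP, and doxycycline (Dox) shuts it off. The doxycycline group holds GFPmid T-ALL cells sorted from the spleens of 3 mice given Dox for 3 days, in which endogenous Ikaros is restored. The untreated group holds GFPhigh T-ALL cells sorted from the spleens of 3 mice given no Dox, in which the hairpin is on. The cells of all 6 mice carry the same transgenes and stem from the same leukemia, so the mice are replicates of 1 tumor. Each RNA was sequenced in 2 runs, whose counts were summed per mouse. The sort gate differed together with the treatment, and the labels list no leukemia without the hairpin that was given Dox, so hairpin shut-off, Dox and gate cannot be told apart.

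An alpha chain is assembled in a developing T cell by joining 1 V segment to 1 J segment on the chromosome, and splicing then attaches the join to Trac. Because the delta segments other than the shared V segments lie between the alpha V and J segments, a V-to-J join of alpha removes them from that chromosome. Cells can join again, using V segments further out and J segments nearer to Trac. Unjoined J segments can also be transcribed, from promoters within the J region, under the alpha enhancer that lies downstream of Trac. In the mouse the central V segments exist in several near-identical copies, whose names carry d, n or no letter.

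The results turn on 3 J segments that stood above their neighbours and on 1 V family. The J segments Traj42, Traj27 and Traj26 are shown with Traj43 and Traj41, the neighbours on either side of Traj42. Each is on the plus strand of GRCm38 and is read from the GENCODE M21 transcripts. Capitals mark the motif TTNGGNNNNGGN, searched on the printed strand only, which encodes the conserved Phe-Gly-X-Gly of J segments and which 44 of the 51 alpha J segments (86.3%) hold. In these 5 it was found once in each segment other than Traj41, which held none.
Traj43: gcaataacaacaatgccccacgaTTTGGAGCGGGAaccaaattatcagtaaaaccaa
Traj42: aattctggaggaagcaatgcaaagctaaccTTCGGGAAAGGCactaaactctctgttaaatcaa
Traj41: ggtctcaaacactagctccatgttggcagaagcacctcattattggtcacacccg
Traj27: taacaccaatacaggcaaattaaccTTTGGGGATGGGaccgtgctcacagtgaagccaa
Traj26: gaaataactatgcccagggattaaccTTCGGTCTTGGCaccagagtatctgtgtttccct

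The V family is Trav13, which took most V counts. Coding bases 131 to 220 of 5 members are shown, with capitals for bases that differ from Trav13n-4, because this stretch holds many of the family's differences. Over these 90 bases Trav13d-1 differs from Trav13n-4 at 14, Trav13-1 at 13, and Trav13-2 and Trav13-4-dv7 at 12 each. All sequences are those of the reference genome and not of the leukemia.
Trav13n-4: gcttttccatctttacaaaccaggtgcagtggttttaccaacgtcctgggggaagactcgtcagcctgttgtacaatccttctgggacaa
Trav13d-1: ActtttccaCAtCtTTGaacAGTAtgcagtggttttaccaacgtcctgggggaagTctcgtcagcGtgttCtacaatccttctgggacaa
Trav13-1: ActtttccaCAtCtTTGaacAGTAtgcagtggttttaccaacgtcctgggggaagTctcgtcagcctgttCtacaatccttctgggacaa
Trav13-2: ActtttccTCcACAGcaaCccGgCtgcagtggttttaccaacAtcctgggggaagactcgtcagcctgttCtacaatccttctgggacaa
Trav13-4-dv7: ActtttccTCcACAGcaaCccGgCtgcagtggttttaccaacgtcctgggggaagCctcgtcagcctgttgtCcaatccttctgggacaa

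Depth was 33899095, 44949303 and 43771797 counts in the doxycycline mice and 30133066, 33063390 and 29904744 counts in the untreated mice. Levels are given as CPM, the counts relative to TMM-scaled library size, and 3 counts in a mouse correspond to 0.0667 to 0.10 CPM. Ikzf1, which encodes Ikaros, had 1438, 1523 and 1495 CPM in doxycycline mice and 153.0, 149.7 and 158.6 CPM in untreated mice, in the direction of the labels. Both libraries of untreated mouse 3 carry INJ in their names where the others carry wording on the sort, and without that mouse 45 members passed the test described next, against 44 with all mice.

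Most alpha genes that could be tested were higher in doxycycline mice, and no member was called lower. The edgeR quasi-likelihood test, with Benjamini-Hochberg adjustment over all 13134 genes tested and a threshold of 0.05, called 44 of the 46 members it tested, all higher in doxycycline mice. Over all tested genes 24.8% were called higher, 25.2% lower and 50.0% in either direction. Every doxycycline mouse lay above every untreated mouse in 44 of the 46 tested members, the same 44, and in 30.2% of all tested genes. For 22 of the 46 this was fixed in advance by the filter on low counts, as set out below. The median log2 fold change of the 46 tested members was 2.38 (range 1.19 to 4.42), while that of all tested genes was -0.0037. As no tested member had a negative fold change, 0 were lower at an unadjusted p under 0.05 too, and DESeq2 and limma-voom called 0 lower.

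The count of 44 is shaped by the filter on low counts, which needs 0.299 CPM, the CPM of 10 counts in a library of median size, in 3 of the 6 mice. Of the 46 members tested, 22 reached that level in no untreated mouse, so they entered the test through the doxycycline mice and had to differ. Only 12 members reached it in all 6 mice: Trac, 7 Trav13 segments, Traj42, Traj27, Traj26 and Traj23. These 12 were all called higher. Of the other members, 62 had 0 counts in every mouse (34.8% of members, against 32.0% of all rows) and 70 had counts but were not tested. The members just inside the filter were Trav12n-1 (12, 16 and 14 counts in doxycycline mice, 2, 6 and 1 in untreated mice), Trav15n-1 (11, 23 and 15, and 6, 0 and 2) and Trav15-1-dv6-1. Just outside lay Trav6d-5 (42, 23 and 10 counts in doxycycline mice, 1, 1 and 3 in untreated mice), Trav4d-3 and Trav12d-1. Among all 116 members with counts, the mean CPM was higher in doxycycline mice in 106 and lower in 10, and none of those 10 exceeded 5 counts in any mouse.

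**Figure D1:**
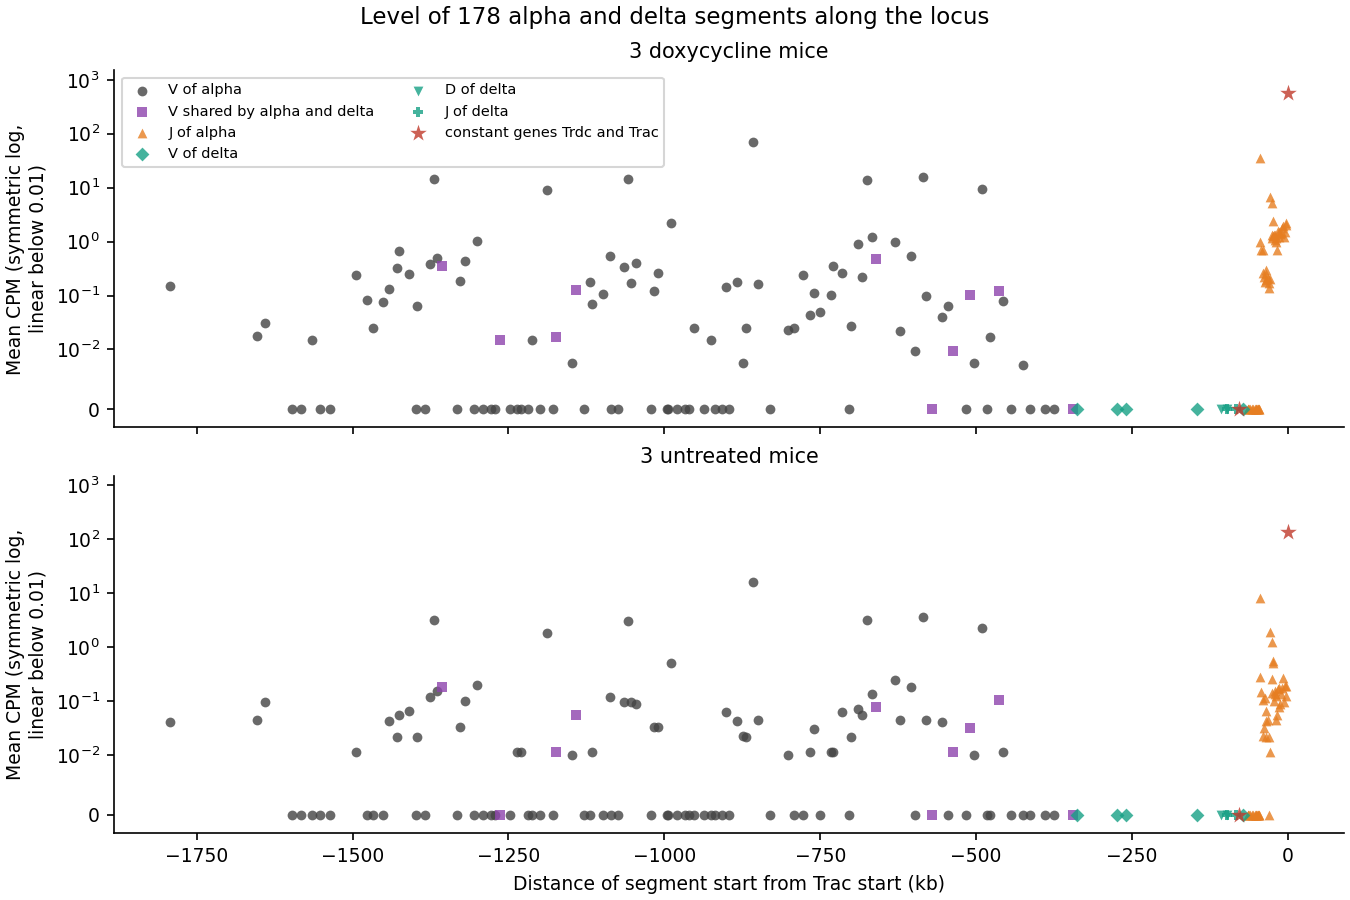
Mean CPM of each of the 178 segments (symmetric log scale, linear below 0.01) against the distance of its start from the start of Trac in kb, for 3 doxycycline mice (upper panel) and 3 untreated mice (lower panel), with 1 marker shape per class. In both panels Trac is the highest point, the delta markers lie at 0, and no V segment nearer to Trac than Trav13-5 has a count.

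Trac, which encodes the constant part of the alpha chain, had the most counts of all members and rose 4.11-fold. It had 567.9, 557.3 and 555.6 CPM in doxycycline mice and 162.6, 120.4 and 126.1 CPM in untreated mice. The groups did not overlap, and untreated mouse 1 was the highest of its group. Means were 560.3 ± 6.67 CPM in doxycycline mice and 136.4 ± 22.9 CPM in untreated mice (SD, n = 3 each), a log2 fold change of 2.04 ± 0.11 (SE) with an edgeR adjusted p of 2.1e-05. Of all tested genes, 302 (2.30%) were called with a larger log2 fold change. Trac (Entrez 100101484) lies at chr14:54220521-54224198. In bulk cells, fewer cells expressing a gene and less RNA per cell cannot be told apart.

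No delta gene was counted. Trdc, the delta constant gene, and the 5 V, 2 D and 2 J segments of delta had 0 counts in all 6 mice, whose total of 215721395 counts sets a limit of 0.0139 CPM (3 counts). These 10 genes are part of the longest stretch without counts in the locus. It runs over 28 consecutive members from Trav17 to Traj43, chr14:53806639-54174798, or 368.2 kb, and it holds the 4 innermost Trav segments, all of the delta genes and the 14 outermost alpha J segments with a row. The next longest stretches without counts held 3 members each. The first member after the long stretch is Traj42, the most abundant J segment, and the last one before it is Trav13-5, which had 1 count in 1 doxycycline mouse. The ends of the stretch were read from the counts, so it is a description with no test.

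The J segments fell into stretches along the chromosome, and all 37 that had counts averaged higher in doxycycline mice. Summed over the 51, they had 85.3, 83.1 and 80.1 CPM in doxycycline mice and 19.5, 13.3 and 14.7 CPM in untreated mice, a ratio of means of 5.22. The 14 segments from Traj59 to Traj43 were at 0. Of the other 37, 27 were tested, 26 rose and 1 (Traj22) did not pass. J segments are 55 to 66 bases long, and how a read across such a short exon is counted depends on a read length that is not given in the sources used here, so per-length levels are compared among J segments and not with V segments or Trac. Counts per 100 Trac counts serve only to compare the groups.

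Traj42, at chr14:54175773-54175836, was the highest J segment in every mouse. It had 36.8, 34.0 and 36.8 CPM in doxycycline mice and 11.2, 7.17 and 5.92 CPM in untreated mice. The groups did not overlap. The log2 fold change was 2.15 ± 0.22 (SE, edgeR adjusted p = 0.00035). Scaled per kb of segment, Traj42 held 41.9% ± 2.5 of the J level in doxycycline mice and 48.9% ± 9.1 in untreated mice (SD, n = 3 each). The untreated mice are spread widely here and their range takes in that of the doxycycline mice.

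Traj27 and Traj26, which are neighbours, formed a second peak. Traj27 had 5.44, 7.24 and 7.82 CPM in doxycycline mice and 2.58, 0.873 and 2.13 CPM in untreated mice (log2 fold change 1.88 ± 0.36, edgeR adjusted p = 0.0039). Traj26 had 7.06, 4.75 and 3.45 CPM in doxycycline mice and 0.972, 1.84 and 0.965 CPM in untreated mice (log2 fold change 2.00 ± 0.35, edgeR adjusted p = 0.0023). In both segments the groups did not overlap, and the mouse that was highest for one was not highest for the other.

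The 13 segments between these peaks, Traj41 to Traj28, were low. Their sum was 4.998, 5.15 and 3.496 CPM in doxycycline mice and 0.872, 0.934 and 0.898 CPM in untreated mice. Per kb, the median segment of this stretch stood at 3.75 CPM in doxycycline mice and 0.657 CPM in untreated mice, against 561 and 127 CPM per kb for Traj42. Only Traj41, Traj40 and Traj39, next to Traj42, were tested, and all 3 rose (log2 fold changes 1.81 ± 0.39, 2.32 ± 0.68 and 2.66 ± 0.52). Traj40 fell short of the threshold without doxycycline mouse 2 (edgeR adjusted p = 0.057), untreated mouse 2 (0.061) or untreated mouse 3 (0.062).

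**Figure D2:**
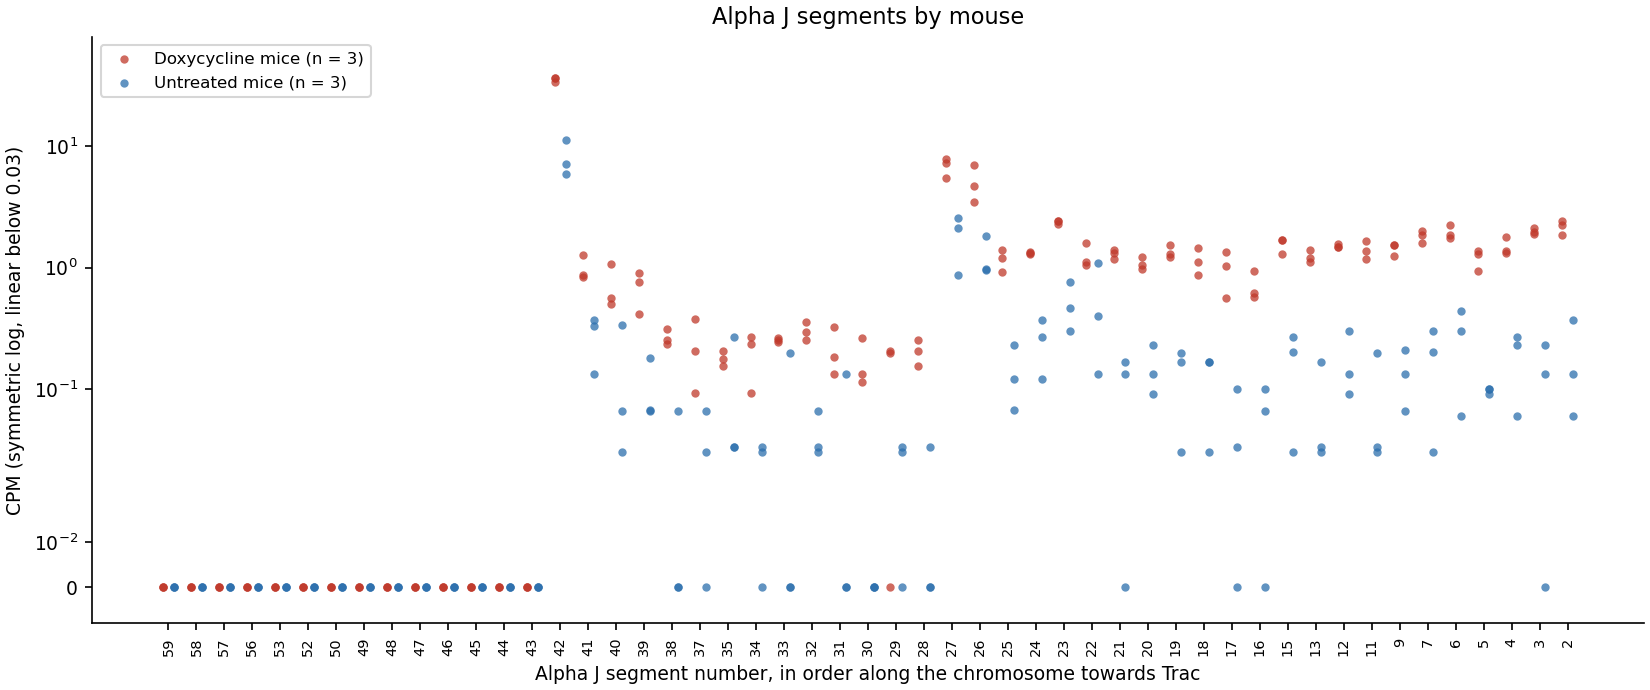
CPM of each of the 51 alpha J segments in each mouse (symmetric log scale, linear below 0.03), in chromosomal order towards Trac, with doxycycline mice left of untreated mice at each segment. Segments 59 to 43 lie at 0, segment 42 is highest, segments 27 and 26 form a second peak, and segments 25 to 2 stand near 1 CPM in doxycycline mice.

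The 21 segments nearest to Trac, Traj25 to Traj2, were all counted and stood at a fairly even level in doxycycline mice. Their mean levels ran from 11.7 to 39.6 CPM per kb there and from 0.708 to 8.99 CPM per kb in untreated mice. Summed, they had 31.0, 31.9 and 28.5 CPM in doxycycline mice and 3.89, 2.47 and 4.82 CPM in untreated mice, a ratio of means of 8.18. The median segment stood at 23.6 CPM per kb in doxycycline mice and 2.46 CPM per kb in untreated mice. All 21 were tested and 20 rose, with log2 fold changes of 2.22 to 4.42. The largest were those of Traj17 (4.42 ± 0.68), Traj3 (4.03 ± 0.57), Traj13 (3.98 ± 0.50) and Traj11 (3.96 ± 0.53), each resting on 0 to 0.233 CPM in the untreated mice. Traj3 had 2.12, 1.89 and 1.98 CPM in doxycycline mice, against 0.134, 0 and 0.233 CPM in untreated mice. Traj17 had 0.559, 1.35 and 1.03 CPM in doxycycline mice, against 0.101, 0 and 0.033 CPM in untreated mice. In both the groups were far apart, but the untreated values are 0 to 7 counts, so the size of the fold is loosely held. Traj23 was the segment of this stretch over the filter level in all mice, with 2.41, 2.29 and 2.44 CPM in doxycycline mice and 0.469, 0.301 and 0.765 CPM in untreated mice (log2 fold change 2.22 ± 0.33, edgeR adjusted p = 0.00094). Traj22 did not pass (1.19 ± 0.58, edgeR adjusted p = 0.12). Its untreated mouse 2, at 1.08 CPM, reached the range of the doxycycline mice (1.06, 1.60 and 1.10 CPM).

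Set against Trac in the same mouse, the groups lay apart for the last stretch and overlapped for the peaks. For every 100 Trac counts, Traj25 to Traj2 had 5.45, 5.73 and 5.13 counts in doxycycline mice and 2.39, 2.05 and 3.82 counts in untreated mice, without overlap and with a ratio of means of 1.97. Traj42 had 6.40 ± 0.27 counts per 100 Trac counts in doxycycline mice and 5.85 ± 1.11 in untreated mice. Traj27 and Traj26 together had 2.13 ± 0.09 in doxycycline mice and 2.30 ± 0.14 in untreated mice (SD, n = 3 each). As a share of J counts, Traj25 to Traj2 took 36.3%, 38.4% and 35.6% in doxycycline mice and 19.9%, 18.6% and 32.7% in untreated mice, where untreated mouse 3 came near the doxycycline mice. The stretches were drawn after the counts were seen, so none of these differences was tested. In the fit across all genes 38 of the 45 tested members other than Trac had a larger log2 fold change than Trac. Among them were 20 of these 21 segments and all 7 tested Trav13 segments. This count is shaped by the filter, since 22 of the 46 tested members reached its level in no untreated mouse. Of these 21 segments only Traj23 reached it in all 6 mice. The 12 members that did, Trac included, had log2 fold changes of 1.88 (Traj27) to 2.33 (Trav13d-3). No test of a segment against Trac was made.

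**Figure D3:**
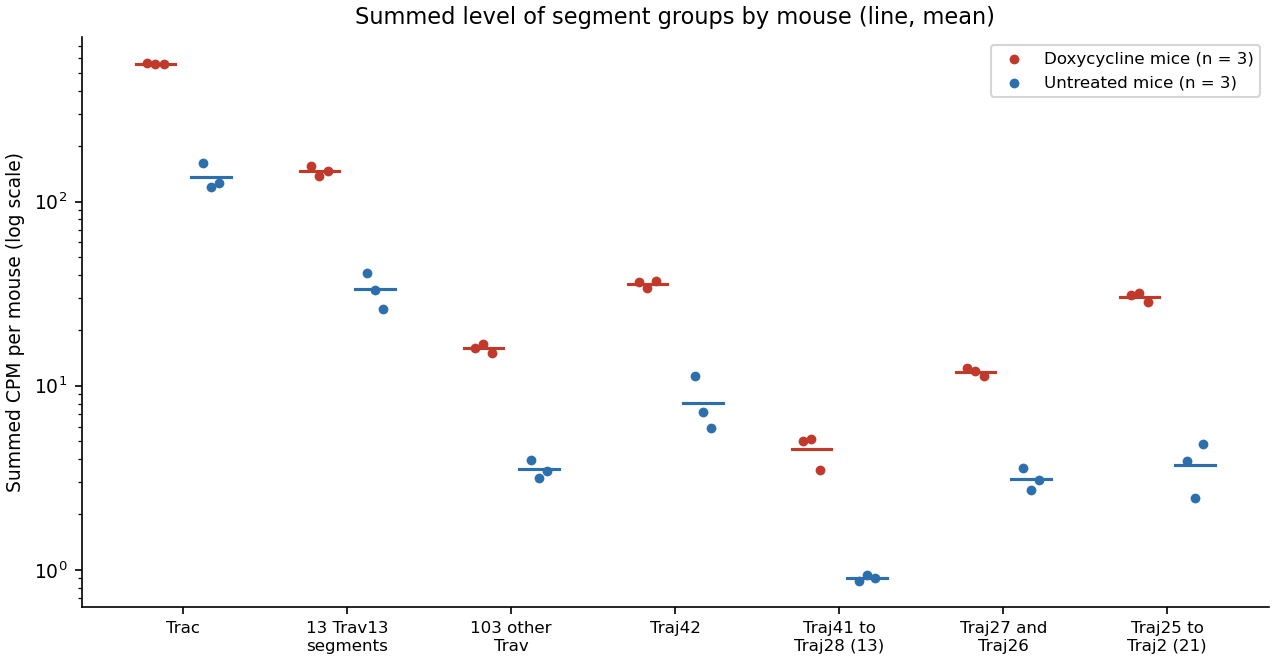
Summed CPM per mouse on a log scale for Trac, the Trav13 family, the other Trav segments and the 4 J stretches, with doxycycline mice left of untreated mice and a line at each mean. The groups are apart in every set, and the gap is widest for Traj25 to Traj2.

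Among the 116 V segments named Trav, the Trav13 family took nearly all counts. Its 13 members summed to 156.1, 137.2 and 147.4 CPM in doxycycline mice and 41.04, 32.98 and 26.24 CPM in untreated mice. That was 90.2% ± 1.0 of Trav counts in doxycycline mice and 90.3% ± 1.6 in untreated mice (SD, n = 3 each), so the level differed and the share differed by less than the spread between mice. The 7 members that were tested all rose, by log2 fold changes of 2.09 to 2.33, or 4.26- to 5.03-fold, close to Trac. For every 100 Trac counts the family had 26.2 ± 1.47 counts in doxycycline mice and 24.5 ± 3.36 in untreated mice.

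Trav13n-4, at chr14:53362368-53364106 within the V region, was the most abundant V segment in every mouse. It had 72.3, 64.8 and 72.1 CPM in doxycycline mice and 19.95, 15.60 and 13.04 CPM in untreated mice. The groups did not overlap, and the log2 fold change was 2.11 ± 0.15 (edgeR adjusted p = 6.6e-05). Per kb it held 43.3% ± 1.3 of the level of alpha V segments in doxycycline mice and 44.5% ± 0.55 in untreated mice (SD, n = 3 each). Next in order per kb came Trav13-2, Trav13d-1, Trav13n-1 and Trav13-1, with 8.55% to 9.84% of the level in doxycycline mice and 8.44% to 10.1% in untreated mice, then Trav13-3 and Trav13d-3. In doxycycline mice these 4 differed from each other by little more than their spread (SD 0.44 to 2.06 percentage points), as did the last 2 (5.76% ± 0.15 and 5.58% ± 0.37). Trav13d-1 varied most, with 18.9, 11.5 and 12.3 CPM in doxycycline mice and 3.02, 4.43 and 1.93 CPM in untreated mice. Of the 6 other members, Trav13d-2 and Trav13n-2 were at 0, Trav13-5 and Trav13d-4 had at most 1 count in any mouse, Trav13n-3 had 9, 6 and 6 counts in doxycycline mice and 0, 1 and 3 in untreated mice, and Trav13-4-dv7 had 3, 7 and 5, and 0, 8 and 2.

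Reads can be shared among V segments, which limits how far single members can be read. Of 119 V segments compared over their aligned coding bases, 98 were at least 95% identical to another of their family and 44 had a copy identical throughout. Of the 18 tested V segments, 17 were at least 95% identical to another, the exception being Trav13n-4, whose identity to 11 others of its family was 91.2% to 94.5%. Cut into 50-base windows, 14.2% of Trav13n-4 also occurred in another V segment, against 29.1% of Trav13-2, 45.4% of Trav13-1, 82.3% of Trav13n-1, 84.4% of Trav13d-1, 85.02% of Trav13-3 and 100% of Trav13d-3. In the stretch printed above, Trav13d-1 and Trav13-1 share most of their differences from Trav13n-4, while Trav13-2 resembles Trav13-4-dv7, which had almost no counts. How reads with several matches were counted is not given in the sources used here, so counts of the family as a whole are firmer than those of its members, and how many of the 7 tested members were transcribed cannot be told apart. Named by copy, segments with n took 54.8% ± 1.3 of Trav counts in doxycycline mice and 55.4% ± 1.6 in untreated mice, those with d took 17.3% ± 2.1 and 16.5% ± 2.8, and those with neither letter took 27.9% ± 1.7 and 28.1% ± 1.5.

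The 103 other Trav segments were low throughout, with a sum of 15.97 ± 0.95 CPM in doxycycline mice and 3.52 ± 0.40 CPM in untreated mice (SD, n = 3 each). Of these, 36 were at 0, 11 were tested and 10 rose. Some of those at 0, such as Trav12d-2 and Trav12n-2, are identical throughout to each other. As the counting of reads with several matches is not given, their 0 does not show that they were silent. Trav9n-3 was the most abundant, with 1.68, 2.13 and 2.90 CPM in doxycycline mice and 0.704, 0.241 and 0.565 CPM in untreated mice, and it has a copy, Trav9d-3, that is identical throughout. The largest changes were those of Trav7-5 (log2 fold change 3.55 ± 0.51) and Trav14-1 (3.10 ± 0.59), which had at most 1.44 CPM in any mouse. The other calls were Trav9d-3 (2.36 ± 0.47), Trav15n-1 (2.15 ± 0.70), Trav6n-6 (2.14 ± 0.43), Trav9-2 (2.06 ± 0.45), Trav12n-1 (1.799 ± 0.53), Trav12-2 (1.57 ± 0.36) and the shared segment Trav15-1-dv6-1. Of the 10 that rose, Trav7-5, Trav14-1, Trav15n-1, Trav6n-6, Trav12n-1, Trav12-2 and Trav15-1-dv6-1 reached the filter level in no untreated mouse. These entered the test through the doxycycline mice. Trav14d-1 did not pass (1.65 ± 0.66, edgeR adjusted p = 0.066). Trav12n-1 and Trav15n-1 lay close to the threshold (edgeR adjusted p = 0.021 and 0.032). With DESeq2 neither passed (adjusted p = 0.10 and 0.085), and without any 1 of 5 of the 6 mice Trav15n-1 did not pass either.

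The V segments that alpha and delta can both use had few counts. All 10 summed to 1.23, 1.44 and 1.01 CPM in doxycycline mice and 0.402, 0.512 and 0.499 CPM in untreated mice, a ratio of means of 2.61. Only Trav15-1-dv6-1 was tested, with 21, 23 and 14 counts in doxycycline mice and 2, 2 and 3 counts in untreated mice (log2 fold change 2.62 ± 0.48, edgeR adjusted p = 0.0024). It reached the filter level in no untreated mouse, so it entered the test through the doxycycline mice. Trav15d-1-dv6d-1 had 8, 19 and 18 counts in doxycycline mice and 7, 4 and 6 counts in untreated mice. It is 100% identical over the aligned coding bases to Trav15n-1, a V segment of alpha alone, so its reads may be shared with that segment. Trav14d-3-dv8 and Trav6-7-dv9 had at most 9 counts in any mouse.

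**Figure D4:**
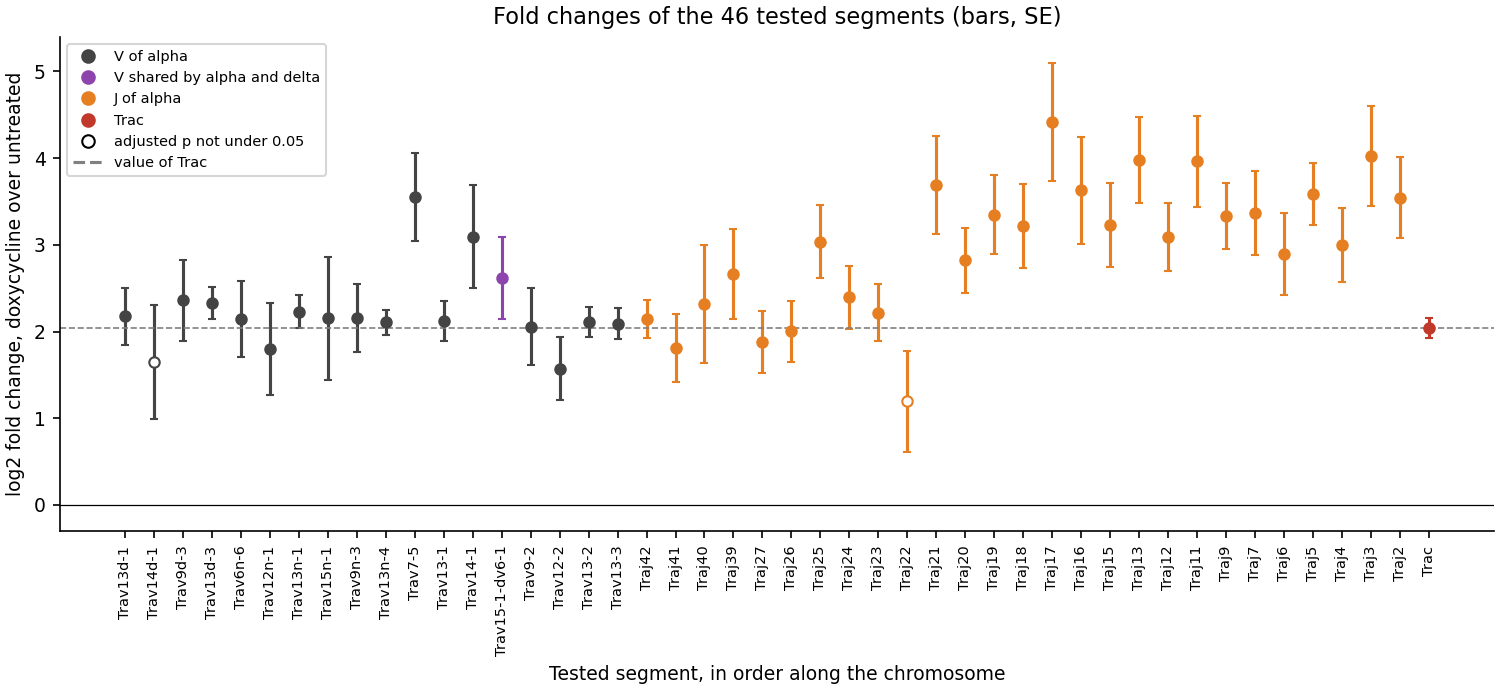
Log2 fold change (doxycycline over untreated, bars SE) of the 46 tested segments in chromosomal order, coloured by class, with a dashed line at the value of Trac (2.04) and open circles where the edgeR adjusted p is not under 0.05. Of the 45 other segments 38 lie above the line, the 7 Trav13 segments just above it (2.09 to 2.33) and 20 of the 21 from Traj25 to Traj2 at 2.22 to 4.42. Of the 46, 22 reached the filter level in no untreated mouse and entered the test through the doxycycline mice.

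The genes that flank the locus moved less than Trac, and in both directions. Dad1, which starts 11.3 kb beyond Trac and encodes a subunit of the oligosaccharyltransferase, had 84.0 ± 3.68 CPM in doxycycline mice and 73.5 ± 4.34 CPM in untreated mice (SD, n = 3 each). Its log2 fold change was 0.19 ± 0.07 (edgeR adjusted p = 0.055), and it passed under 4 of the alternatives tried, among them scaling by library totals (adjusted p = 0.047). Of the other tested genes within 250 kb beyond Trac, Abhd4, Oxa1l, Slc7a7, Mrpl52 and Mmp14 did not pass, and Lrp10 (1.13 ± 0.07), at 239.9 kb, rose. On the V side, Rab2b rose (0.86 ± 0.11, edgeR adjusted p = 0.00061), Supt16 fell by 0.43 on the log2 scale (0.0016) and Sall2 fell by 0.30 (0.028, but 0.097 without doxycycline mouse 1), while Chd8, Tox4 and Mettl3 did not pass. The 4 olfactory receptor genes next to the first V segment were at 0.

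Among 5 genes for the CD3 and zeta chains and the pre-T alpha chain, the largest change was a fall, that of Ptcra. Of these 5, 1 rose, 2 fell and 2 did not pass, beside 50.0% of all tested genes called in either direction. Cd247, the zeta chain, rose by a log2 fold change of 0.50 ± 0.08, and Cd3g, the gamma chain of CD3, fell by 0.45. Ptcra, the pre-T alpha chain that pairs with the beta chain before an alpha chain is made, averaged 27.7 ± 18.1 CPM in doxycycline mice and 125.3 ± 17.3 CPM in untreated mice (SD, n = 3 each). It fell by 2.17 on the log2 scale (SE 0.48, edgeR adjusted p = 0.015, but 0.053 without untreated mouse 2). The beta constant genes Trbc1 and Trbc2 rose by 0.64 ± 0.10 and 0.31 ± 0.07.

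Of 11 genes that cut, join or open the locus, 4 rose, 1 fell and 6 did not pass, so the share called was no higher than the 50.0% of all tested genes, and their median log2 fold change was 0.08. Dclre1c, the nuclease that opens hairpin ends, rose by 1.05 ± 0.19, and Xrcc4, of the end-joining ligase, by 0.44 ± 0.10. Dntt, which adds untemplated bases at the joins, averaged 238 ± 54.4 CPM in doxycycline mice and 716 ± 14.6 CPM in untreated mice and fell by 1.59 (SE 0.16, edgeR adjusted p = 0.0003). Rag1, which cuts the segments, had 402 ± 227 CPM in doxycycline mice and 907 ± 7.36 CPM in untreated mice and did not pass (log2 fold change -1.17 ± 0.41, edgeR adjusted p = 0.063). Of 16 tested factors that bind the alpha enhancer or segment promoters, 6 rose, 1 fell and 9 did not pass, again no higher a share than the 50.0% of all tested genes (median log2 fold change 0.18). Egr1 rose by 2.66 ± 0.21, Stat5b by 0.63 ± 0.07 and Tcf7 by 0.44 ± 0.06, and Runx1 fell by 0.70.

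Lists of T-cell genes were read beside these results. The sorted cells are themselves a T-cell leukemia, so these genes do not mark other cells. Over all tested genes, 24.8% were called higher and 25.2% lower. Of 11 tested genes of mature T cells, 8 rose and 2 fell (summed 1250 to 1523 CPM in doxycycline mice, 748 to 832 CPM in untreated mice). Among them Cd5 (1.49 ± 0.12), Cd28 (1.65 ± 0.18) and Icos (2.23 ± 0.30) rose. Of 13 genes that define the T lineage, 8 rose and 2 fell (9048 to 10978 CPM in doxycycline mice, 7147 to 7368 CPM in untreated mice), with Cd8a (2.02 ± 0.18) and Lat (0.44 ± 0.06) among the rises and none at 0. Of 9 tested genes of gamma-delta T cells, 2 rose and 3 fell (132 to 181 CPM in doxycycline mice, 119 to 194 CPM in untreated mice), and Blk and Il17a were at 0. The share called in this list was near the 50.0% of all tested genes. The gamma constant genes Trgc2 and Trgc1 fell by 4.17 and 3.41 on the log2 scale, Sox13 fell by 1.32 and Id3 rose by 1.39 ± 0.17.

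Markers of non-T cells were mixed, and the counts below stand beside 24.8% of all tested genes called higher and 25.2% called lower. Of 8 erythroid genes, 3 rose (105 to 142 CPM in doxycycline mice, 9.40 to 69.1 CPM in untreated mice), among them Slc4a1 (2.39 ± 0.55, edgeR adjusted p = 0.059 without untreated mouse 1) and Alas2 (1.69 ± 0.53), the last not passing in 5 of the 6 fits that left out a mouse (edgeR adjusted p up to 0.11). Hbb-b1 did not pass (1.83 ± 0.79) but did without untreated mouse 3 (3.19, edgeR adjusted p = 0.00021). Of 9 tested myeloid genes, 4 rose and 3 fell (65.5 to 89.1 CPM in doxycycline mice, 26.2 to 44.8 CPM in untreated mice), with Itgam (2.16 ± 0.12), Cd68 (0.91 ± 0.16) and Csf1r (1.78 ± 0.31) higher and S100a8 lower by 1.32. Of 6 tested B-cell genes, 1 rose, Cd22 (2.45 ± 0.60), while Pax5 was at 0 (254.9 to 300.2 CPM in doxycycline mice, 210.3 to 359 CPM in untreated mice, nearly all of it Ighm). Of 2 tested NK-cell genes, Klrb1c fell by 1.23 (edgeR adjusted p = 0.022, DESeq2 adjusted p = 0.17) and Gzma did not pass (326 to 928 CPM in doxycycline mice, 811 to 1412 CPM in untreated mice, nearly all of it Gzma), while Gzmb and Klra8 were at 0. The part of these marker levels in the rise of the alpha genes was not tested.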

How the data were processed

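The authors deposited raw counts per gene, with a gene length, under Entrez identifiers, for 12 libraries (2 runs of each of 6 mice). Per the submitters' processing notes, CASAVA 1.8.1, featureCounts and the mm10 build were used. The read length is not given in the sources used here, nor are the aligner, the strand setting and how reads with several matches were counted. Per-library tables equalled the whole-series table in 12 of 12 libraries. Symbols came from RefSeq GRCm38.p6 for 25275 rows, and GENCODE M21 was used where RefSeq gave none. In all, 25293 of 27179 rows (93.1%) had a symbol. Sequences came from GENCODE M21 (176 of 178 members). Kits and sorting are per the labels' protocols.

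Runs were summed per mouse. The doxycycline and untreated mice were set against each other in R 4.3.3 with edgeR 4.0.16, using filterByExpr, TMM scaling, the robust quasi-likelihood F test without a block, and Benjamini-Hochberg adjustment at 0.05 over 13134 genes. The SE of a log2 fold change is its size over the square root of F. CPM use TMM-scaled totals. The labels name mice but not separate tumors, so p-values measure the spread between mice of 1 leukemia. Exact permutation of 3 against 3 mice cannot give a p below 0.1 and was not used. Limits from 0 counts cover counting error only. The code was tested on 3 simulated tables with 200 changed genes each. At the 0.05 threshold, on average 10.5% of edgeR calls there were false, against 22.1% with DESeq2 and 8.54% with limma-voom.

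The members and gene lists were chosen with earlier results of these data known. Named genes were Trac, Trdc, every member called, the 6 highest members per class, Ikzf1, up to 4 genes with the smallest p per list, and up to 6 tested genes nearest to either side of the locus. Lrp10, the untested members, the J stretches and the members of lists beyond 4 were chosen after their values were seen. Scart2 and Hbb-bt had no match. Some genes that the naming rule takes are left out of the text. Alternatives were other scalings and filters, DESeq2 1.42.0, limma-voom 3.58.1, a replicate block, each run alone and each mouse left out. Deviations of same-numbered mice correlated by 0.16, -0.01 and -0.10, so the numbers do not pair mice.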

Additional observations from a re-analysis of the deposited data

How the results depend on the processing

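Of the members, 44 were called higher and none lower with RLE, upper quartile or library-total scaling and with a fit that is not robust. DESeq2 called 42, limma-voom 45, run 1 alone 35 and run 2 alone 34. Leaving out each mouse gave 43 to 48 members and 4869 to 6281 genes in all. With over 1 CPM needed in at least 3 mice, 27 of 28 members tested were called, since fewer were tested, and with no filter 65 of 116. With the replicate block, which the numbers do not support, 45 members and 6259 genes were called. No member's direction reversed. The log2 ratio of summed levels was 1.38 for the shared V segments but 1.83 in run 2 alone and 1.08 in run 1 alone, and the cause was not tested. Without segments under 10 counts, Trav15-1-dv6-1 held 56.8% of the shared V level in doxycycline mice and 29.5% in untreated mice, against 38.9% and 15.9% with them.

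Short segments, low counts in untreated mice and near-identical V copies limit single segments. Per-length levels of V, J and constant genes cannot be ranked against each other without the read length. The J stretches were drawn from the counts. All mice carried the same leukemia, and Dox, hairpin and sort gate varied together.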
